A study of Mus musculus with 5 samples.

Results

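Conventional CD4 T cells were a small population of the mouse lung immune preparation, 724 of the 44772 kept cells. They carry an αβ T cell receptor, read antigen on MHC class II with the help of the CD4 coreceptor, and act mainly through secreted cytokines and contact signals. Naive cells recirculate between blood and lymph nodes under the control of CCR7 and the sphingosine receptor S1PR1. After priming they take on helper programmes, among them Th1, Th2, Th17 and follicular helper, or enter tissue as resident memory cells. Regulatory T cells, which express Foxp3, form a separate branch of the CD4 lineage.

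The cells were chosen from their own RNA. A barcode was kept when it held 300 to 8000 genes, 800 to 60000 UMIs (unique molecular identifiers, each standing for 1 captured RNA molecule) and under 15% mitochondrial UMIs, which left 44772 of the 52800 deposited barcodes. A kept barcode was called a conventional CD4 T cell with at least 2 UMIs of Cd3d, Cd3e and Cd3g together and at least 1 of Cd4. It also had to hold none of Cd8a, Cd8b1, Foxp3, Trdc, Cd79a and Car4 and at most 1 of Cd68 and Mrc1 together. The levels of these genes are therefore given only as a description.

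The series followed bleomycin injury of the lung, a model in which a DNA-damaging drug causes acute alveolitis followed by fibrosis. Each of the 5 libraries was made with droplet 3′ chemistry from immune cells of digested, perfused lungs. All libraries carried the same genotype, Ms4a3-CreER;R26-tdT, an inducible Cre recombinase under the promoter of Ms4a3, a gene of granulocyte-monocyte progenitors, together with a Cre-activated tdTomato reporter at the Rosa26 locus. The study's scheme of the single-cell experiment names tamoxifen, which switches this recombinase on, beside bleomycin. The groups were PBS-treated lungs (sham) and lungs taken 3, 7, 14 and 28 days after bleomycin, with 1 library per group. The study used adult mice of both sexes from 7 weeks of age, and the number, exact age and sex of those behind each library are not given in the sources used here. With 1 library per group no difference between days could be tested, and every interval below is a 95% interval that covers counting error only. All 4 days were set against the same sham library, so what is particular to that library enters each comparison.

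The libraries held 131210167 UMIs in sham, 89769386 on day 3, 151234640 on day 7, 144984156 on day 14 and 167506186 on day 28. After filtering they kept 9238, 8004, 9493, 7757 and 10280 cells in that order. The day 7 library stood apart: it held exactly 10000 barcodes and none below 4624 UMIs, whereas the lowest barcodes of the other libraries held 500 to 502 UMIs. Results that answer a comparison and that moved with this floor are therefore given below with the same floor of 4624 UMIs set in every library. Most other list medians and shares of cells, among them the share with replication and mitosis genes, are given without it. Some of those may move with it too. Over all pairs of libraries, 226 kept barcode sequences were shared, and 1 of them marked a CD4 T cell in both libraries, on days 7 and 28.

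The label was first set against T cell genes that the rule did not use. Trac, the constant region of the receptor α chain, was seen in 92.0% of CD4 T cells in sham, 98.4% on day 3, 94.7% on day 7, 85.2% on day 14 and 87.9% on day 28. Trbc2, a constant region of the β chain, was seen in 94.4% to 100% of the cells. Of the genes of the rule, Cd3e was seen in 85.3% to 90.2% of the cells. Cd4 itself stood at 295, 295, 227, 300.2 and 311 CPM (the gene's share of all UMIs of the library's CD4 T cells, scaled to a total of 1000000) in sham and on days 3, 7, 14 and 28. The Cd4 signal was thin, since 437 of the 724 cells rested on a single Cd4 UMI. Just outside the CD3 threshold, 12 barcodes with 1 CD3 UMI met every other condition, and 75% of them held Trac or Trbc UMIs. Just inside, 24 cells held exactly 2 CD3 UMIs and 95.8% of them held Trac or Trbc UMIs, against 99.9% of the 700 cells with 3 or more. The rule also leaves CD4 T cells without a captured Cd4 UMI outside: T cells with no Cd4, Cd8a, Cd8b1 or Foxp3 UMI numbered 170, 186, 148, 292 and 416, which was 44.3%, 20.1%, 17.9%, 31.6% and 46.0% of all T cells called.

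CD4 T cells made up a larger share of the kept cells in all 4 bleomycin libraries than in sham, although the intervals of day 7 and sham overlapped. In sham they were 75 of 9238 cells, 0.812% (0.639 to 1.02). On day 3 they were 123 of 8004 cells, 1.54% (1.28 to 1.83), and on day 7 they were 113 of 9493, 1.19% (0.982 to 1.43). The shares of days 14 and 28 were the highest, at 2.35% (2.02 to 2.71, 182 cells) and 2.25% (1.97 to 2.55, 231 cells), and their intervals overlapped each other. With the day 7 floor set in all libraries the shares became 0.724%, 1.68%, 1.19%, 2.11% and 1.21%, so that day 28 no longer stood beside day 14. A share of kept cells also depends on how many other cells were captured, and cell numbers per lung were not measured here.

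**Figure D1:**
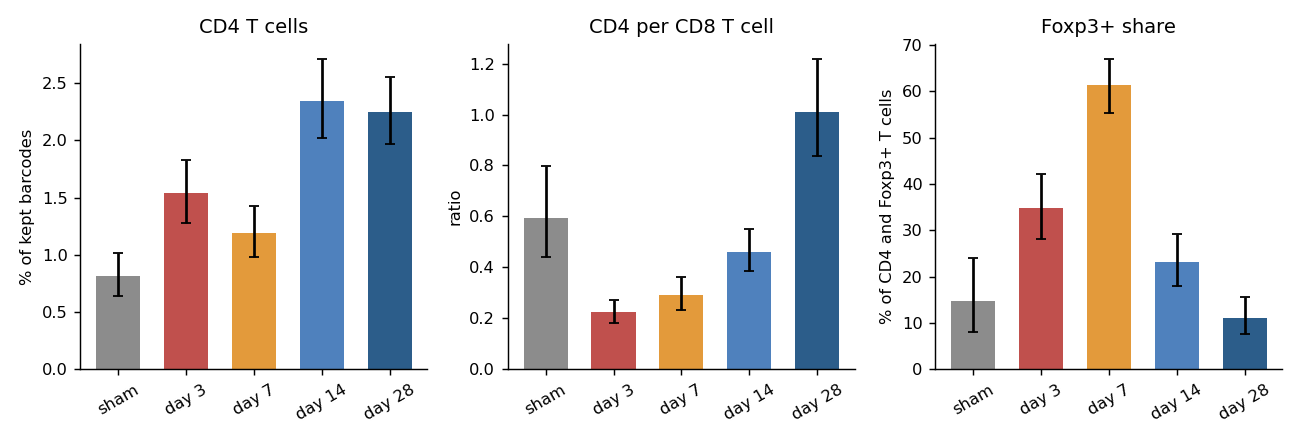
CD4 T cells by library, in 3 bar charts that start at 0: their share of kept barcodes (percent), their number per CD8 T cell (ratio) and the Foxp3-positive share of conventional CD4 and Foxp3-positive cells (percent), with black bars for 95% counting intervals. Foxp3-positive cells were called with or without a Cd4 UMI. Sham has the lowest share of kept cells, 0.812%, the CD4 to CD8 ratio runs from 0.223 on day 3 to 1.01 on day 28, and the Foxp3-positive share peaks at 61.3% on day 7.

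The balance against CD8 T cells, which kill cells that present foreign peptide on MHC class I, took another course. There were 0.595 CD4 T cells per CD8 T cell in sham (0.441 to 0.798), 0.223 on day 3 (0.182 to 0.272), 0.291 on day 7 (0.234 to 0.360), 0.462 on day 14 (0.385 to 0.552) and 1.01 on day 28 (0.837 to 1.22). The number of CD8 T cells was 126 in sham and 551, 388, 394 and 229 on days 3, 7, 14 and 28. The day 3 library had the lowest ratio although it held more CD4 T cells than sham, and the intervals of days 3, 7 and 28 did not overlap that of sham. With the day 7 floor in all libraries the ratio of day 28 was 0.634 (0.481 to 0.831), beside 0.485 in sham (0.339 to 0.687), 0.291 on day 7 and 0.209 on day 3 (0.168 to 0.259). The intervals of days 7 and 28 then overlapped that of sham. With 2 or more Cd4 UMIs asked of each cell, all 3 overlapped it, at 0.222 in sham (0.142 to 0.337), 0.116 on day 3 (0.0882 to 0.151), 0.126 on day 7 (0.0918 to 0.170) and 0.288 on day 28 (0.216 to 0.381).

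Foxp3-positive cells, which the rule keeps apart from the conventional cells, were 13, 66, 179, 55 and 29 in sham and on days 3, 7, 14 and 28. They were called with or without a Cd4 UMI, whereas the conventional cells needed at least 1. The shares below therefore set unlike rules side by side, and T cells with neither Cd4 nor Foxp3 UMIs are left out of them. The share of Foxp3-positive cells among conventional CD4 and Foxp3-positive cells together was 14.8% in sham (8.11 to 23.9), 34.9% on day 3 (28.1 to 42.2), 61.3% on day 7 (55.5 to 66.9), 23.2% on day 14 (18.0 to 29.1) and 11.2% on day 28 (7.60 to 15.6). By these unlike rules, day 7 was the only library in which Foxp3-positive cells outnumbered the conventional cells. With the day 7 floor in all libraries the shares were 9.09% (3.02 to 20), 34% (26.6 to 41.9), 61.3%, 18.6% (12.6 to 25.9) and 10% (4.90 to 17.6), and day 7 was still the highest. Regulatory T cells without a captured Foxp3 UMI fall among the conventional cells. Of 12 genes listed for regulatory T cells, 9 reached 10 CPM in at least 1 library, Foxp3 being at 0 by the rule. Their summed level in the conventional cells was 421, 1068, 1011, 977 and 655.5 CPM. Ikzf2, the transcription factor Helios, stood at 27.7 CPM in sham, 144 on day 3, 260 on day 7, 157 on day 14 and 45.7 on day 28. It was highest on day 7, when the share of Foxp3-positive cells was largest. The median log2 ratio of the list to sham, taken as described below, was highest on day 7 too. It was 0.90, 1.27, 0.71 and 0.53 on days 3, 7, 14 and 28, the same order of days as the share. Other values of the list had another order. Ctla4, also listed, was higher on day 3, at 323 CPM, than on day 7, at 221 CPM, and the summed level was highest on day 3. The part of regulatory T cells without a captured Foxp3 UMI in the values below was not tested.

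The depth per cell differed between the libraries. The median CD4 T cell held 5208 UMIs in sham, 6231 on day 3, 6458 on day 7, 5461.5 on day 14 and 4222 on day 28. B cells, which should lack T cell genes and served to show free RNA, held 4122.5, 5723.5, 6890, 5276 and 3219. For shares of cells with a UMI, each cell was therefore thinned to 1500 UMIs, and the 5 CD4 T cells below that depth, 1 on day 14 and 4 on day 28, were left out. Levels were compared as log2(CPM + 10), a scale that understates the change of low genes. The interval beside a log2 ratio is that of the plain ratio of CPM. A gene was counted when it reached 50 CPM in at least 1 of the 2 libraries compared, and was called when the log2 values differed by 1 or more, which is 2-fold.

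RNA of other cell types was present in the droplets and moved with the day. Lyz2, a lysozyme gene of macrophages and the most abundant gene of the macrophage and monocyte list, was seen in 76.0%, 33.3%, 42.5%, 88.4% and 96.5% of thinned CD4 T cells in sham and on days 3, 7, 14 and 28. In B cells the shares were 80.9%, 32.5%, 48.0%, 89.4% and 95.5%, so Lyz2 in CD4 T cells was at the level of background. The summed level of the 19 macrophage and monocyte genes in use was 3620, 1243, 2350, 5557 and 6853 CPM in CD4 T cells and 4114, 2167, 4933, 6032 and 9627 CPM in B cells. The neutrophil genes summed to 3773, 2919, 1897, 791 and 1080 CPM, led by S100a9 or S100a8. In B cells they summed to 1862, 440, 4195, 2589 and 313 CPM. In CD4 T cells this signal sat in few barcodes: the median cell held 0 or 1 UMI of the list, and the 2, 3, 4, 2 and 3 cells with 100 or more held 97.3%, 92.5%, 77.4%, 70.6% and 83.5% of its UMIs. Without those 14 cells the sums were 105, 227, 442, 236 and 183 CPM. Levels of myeloid genes in the CD4 T cells are therefore described below only where such genes entered another list or the largest ratios.

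A few barcodes carried far more RNA of another cell type. In all, 26 of the 724 cells held at least 20 UMIs of the MHC class II genes listed, 100 of the club cell gene Scgb1a1 or 100 of haemoglobin, 20 of them on day 7, 4 on day 14 and 2 on day 28. These limits did not cover neutrophil RNA, which was carried by single cells of sham as well. The 18 day 7 cells with MHC class II RNA had a median of 14702 UMIs and held 96.2% of the library's Cd74 UMIs in CD4 T cells. Cd74, the invariant chain of MHC class II, stood at 30.3, 127, 3163, 157 and 285 CPM. The B cell list, of which 5 genes were in use and Cd79a and Pax5 were at 0, had a median log2 ratio of 5.78 on day 7, and 1.68 without those cells. The dendritic cell list, 9 genes with Ccl17 the highest on day 7, had 2.14 and 0.19. The cells left out were picked by MHC class II genes, among them Cd74, which the B cell list holds, so a fall of that list followed from the choice. Just 2 cells held 87.4% of the day 7 UMIs of Scgb1a1, and 2 cells held 98.0% of the day 14 UMIs of the haemoglobin gene Hbb-bs. The epithelial and endothelial list, which includes these genes, summed to 1042, 307, 12485, 8077 and 2932 CPM. Of the 19 CD4 T cells in the highest Scrublet doublet scores, 5 were among the 26.

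Markers of other lymphocytes were low. Of the natural killer cell list 3 of 10 genes reached 10 CPM, with summed levels of 83.2, 117, 212, 84.9 and 30.2 CPM and Ncr1, the defining receptor NKp46, at 0 in every library but day 7. The list for NKT and innate-like T cells summed to 489, 315, 616, 371 and 453 CPM, most of it Tyrobp and Fcer1g, which myeloid cells also express. Its defining factor Zbtb16 was at 0 in sham and at 0.973 to 13 CPM on the other days. The list for group 2 innate lymphoid cells summed to 921, 1085, 1052, 1725 and 1708 CPM, with Il7r, which CD4 T cells themselves express, the most abundant gene. In the sex-linked list Ddx3y, a Y-linked gene, was present in every library at 74.9 to 131 CPM, and Xist was at 0 except on day 14, where it stood at 0.913 CPM.

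The day 3 cells stood apart in interferon-stimulated genes, the antiviral programme that type I interferon induces through the transcription complex ISGF3. Of 25 such genes listed, 24 were in use, and all 22 that were counted on day 3 were at least 2-fold higher than in sham, when 5.64% of all 2977 genes counted were 2-fold higher. The median log2 ratio of the list was 2.33 on day 3, 0.87 on day 7, 0.43 on day 14 and −0.41 on day 28. The medians of all genes at 10 CPM or more were 0.10, 0.15, 0.16 and 0.02. With the 3 genes that had no UMI in sham set at their floor of 3 counts, the list medians of days 14 and 28 were 0.30 and −0.52. Summed over the list, the level was 2273 CPM in sham, 14574 on day 3, 3870 on day 7, 2657 on day 14 and 1678 on day 28. The level of day 3 was thus above that of every other library, and day 28 was below sham.

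Ifi27l2a, an interferon-induced mitochondrial protein, stood at 784 CPM in sham, 5418 on day 3, 1572 on day 7, 987 on day 14 and 522 on day 28. Its log2 ratio on day 3 was 2.77 (2.62 to 2.96). Ly6a, the surface protein Sca-1, stood at 555, 2884, 710, 390 and 384 CPM, with a day 3 ratio of 2.36 (2.18 to 2.58). Day 3 was the high library for both genes, and Ly6a was below sham on days 14 and 28.

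Among effectors, Isg15, a ubiquitin-like modifier, stood at 35.3 CPM in sham, 644 on day 3, 81 on day 7, 38.3 on day 14 and 17.5 on day 28, a log2 ratio of 3.85 (3.43 to 5.07) on day 3. Bst2, tetherin, which holds enveloped virus at the cell surface, stood at 80.7, 739, 160, 63.0 and 61.3 CPM, a ratio of 3.05 (2.68 to 3.75). Ifit1, which binds foreign RNA caps, stood at 20.2, 401.5, 80.0, 26.5 and 4.86 CPM, a ratio of 3.77 (3.32 to 5.54). Their levels on day 3 were separated from every other library by intervals that did not overlap. Ifit3, a partner of Ifit1, went from 2.52 CPM in sham, which was 1 UMI, to 394 CPM on day 3, a ratio of 5.01 (4.80 to 12.59), and stood at 37.0, 16.4 and 0.973 CPM later. Rsad2, the antiviral enzyme viperin, had no UMI in sham, where the floor of 3 counts is 7.57 CPM, and 135 CPM on day 3, at least 17.8-fold higher. Irf7, the factor that amplifies interferon production, stood at 42.9, 447, 62.0, 11.9 and 8.75 CPM. Its ratio was 3.11 (2.68 to 4.17) on day 3 and −1.50 (−3.64 to −1.05) on day 28.

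The day 3 cells did not share this level equally, but few lacked it. Of 11 interferon-stimulated genes scored per cell, at least 3 were seen in 4.00% of thinned CD4 T cells in sham (0.833 to 11.2), 52.8% on day 3 (43.6 to 61.9), 7.08% on day 7 (3.11 to 13.5), 1.66% on day 14 and 0% on day 28, where a count of 0 allows up to 1.61%. Without thinning the shares were 9.33%, 96.7%, 27.4%, 12.1% and 1.30%. On day 3 the median cell showed 3 of the 11 genes and 9.76% showed none, while in sham 82.7% showed none. In B cells of the same libraries the thinned shares with at least 3 genes were 0.281%, 21.7%, 0.452%, 0% and 0%. The list median of B cells on day 3 was 2.29 and that of CD8 T cells 2.35, beside 2.33 in CD4 T cells, with the same sham and day 3 libraries behind all 3 values. The day 3 difference was therefore seen in each of the 3 lymphocyte classes, and the part of free RNA in it was not tested.

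**Figure D2:**
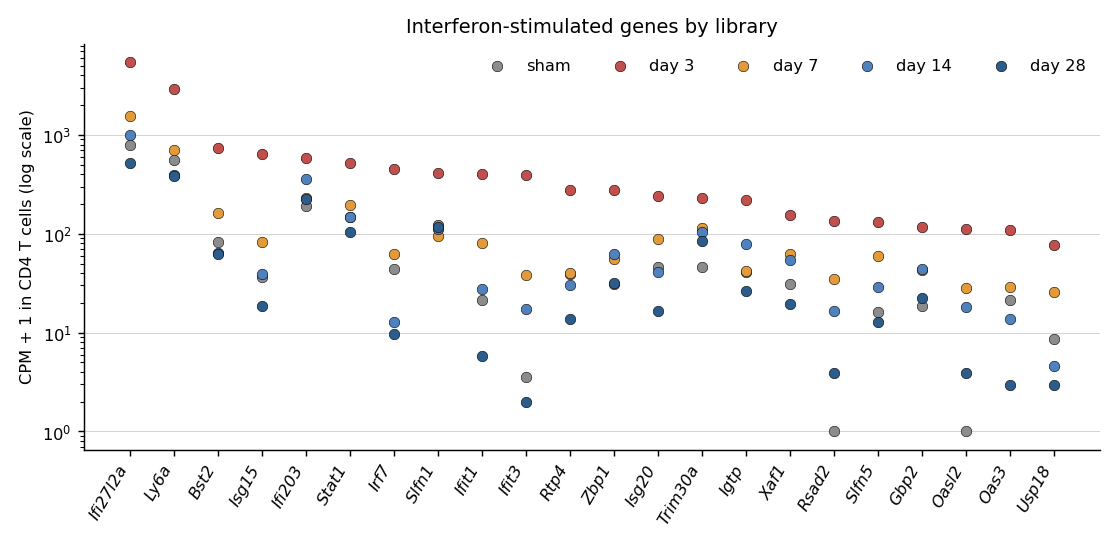
Levels of the 22 interferon-stimulated genes counted on day 3, in CD4 T cells of each library (CPM + 1 on a log axis, 1 point per gene and library, coloured by library). Every day 3 point lies above the other libraries of its gene, and points at the foot of the axis are genes without a UMI in sham.

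The upstream sequences of 4 of these genes are shown because the letters shared by interferon-stimulated response elements recur in them. Each is the 170 bases before the annotated start, 5′ to 3′ on the gene's own strand, from the RefSeq promoter table of GRCm38.p6. Capitals mark GAAANNGAAA or its reverse complement TTTCNNTTTC, searched on both strands, and the matches of Isg15 and of Bst2 overlap one another.
Isg15 (chr4:156200819-156200988, minus strand): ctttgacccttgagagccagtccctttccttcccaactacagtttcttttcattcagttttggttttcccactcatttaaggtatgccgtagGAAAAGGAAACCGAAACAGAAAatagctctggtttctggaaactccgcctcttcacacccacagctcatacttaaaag
Bst2 (chr8:71537473-71537642, minus strand): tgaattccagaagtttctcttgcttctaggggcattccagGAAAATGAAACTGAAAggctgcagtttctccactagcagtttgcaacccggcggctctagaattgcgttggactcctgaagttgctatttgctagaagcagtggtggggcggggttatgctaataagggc
Ifit1 (chr19:34640719-34640888, plus strand): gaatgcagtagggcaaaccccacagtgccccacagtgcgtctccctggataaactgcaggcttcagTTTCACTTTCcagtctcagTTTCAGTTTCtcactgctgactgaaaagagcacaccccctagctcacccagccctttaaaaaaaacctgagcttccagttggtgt
Ifit3 (chr19:34583359-34583528, plus strand): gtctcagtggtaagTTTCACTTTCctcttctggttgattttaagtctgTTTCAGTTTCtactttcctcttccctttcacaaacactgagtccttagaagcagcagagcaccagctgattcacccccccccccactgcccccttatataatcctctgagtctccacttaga
Isg15 held 3 matches in its upstream sequence and the other 3 genes held 2 each. Of the 22 list genes that were 2-fold higher on day 3, 16 had an entry in the table, and 11 of these (68.8%) held the letters within 250 bases before the start. Of all 32851 entries of the RefSeq set 978 held them (2.98%), or 936 of 27025 genes (3.46%). A match is a description of the sequence and no measurement of binding.

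Part of the genes of naive and recirculating cells stood below sham on day 7. Their list of 13 genes had median log2 ratios of −0.35, −0.88, −0.14 and 0.10 on days 3, 7, 14 and 28, and the day 7 median was −0.57 without the cells that held RNA of other types. On day 3, 1 of 11 counted members was 2-fold lower and none higher, beside 1.24% of all genes lower. On day 7, 5 of 11 were lower, beside 3.56% of all 3087 genes counted, on day 14, 2 of 12, beside 1.91% of all genes. On day 28, 1 of 12 was lower and 2 were higher, beside 3.44% of all genes lower and 3.61% higher. Klf2, the transcription factor that drives S1pr1, stood at 2235 CPM in sham, 854 on day 3, 484 on day 7, 914 on day 14 and 1095 on day 28. Its ratio on day 7 was −2.18 (−2.37 to −2.05), and sham was the highest library by a wide margin. In B cells Klf2 was also lower on day 7, at 1113 CPM against 2529 in sham.

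S1pr1, the receptor for exit from tissue, stood at 439 CPM in sham, 285 on day 3, 192 on day 7, 543 on day 14 and 475 on day 28. Lef1, a transcription factor of naive T cells, stood at 482, 282, 189, 314 and 406.5 CPM. Day 7 was the lowest library for both genes and the later libraries were nearer to sham. The list of T cell receptor complex and proximal signalling genes also had its lowest median on day 7, −0.61. How far the cells with RNA of other types lowered single genes on day 7 was not tested. Il7r, the receptor for the survival factor IL-7, took a different course, with 585, 561, 399, 1074 and 1394 CPM and a day 28 ratio of 1.24 (1.05 to 1.46). Bcl2, which protects T cells from apoptosis, stood at 681, 286, 187, 491 and 495 CPM, and was about level in B cells, with 151 CPM in sham and 127 on day 7.

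**Figure D3:**
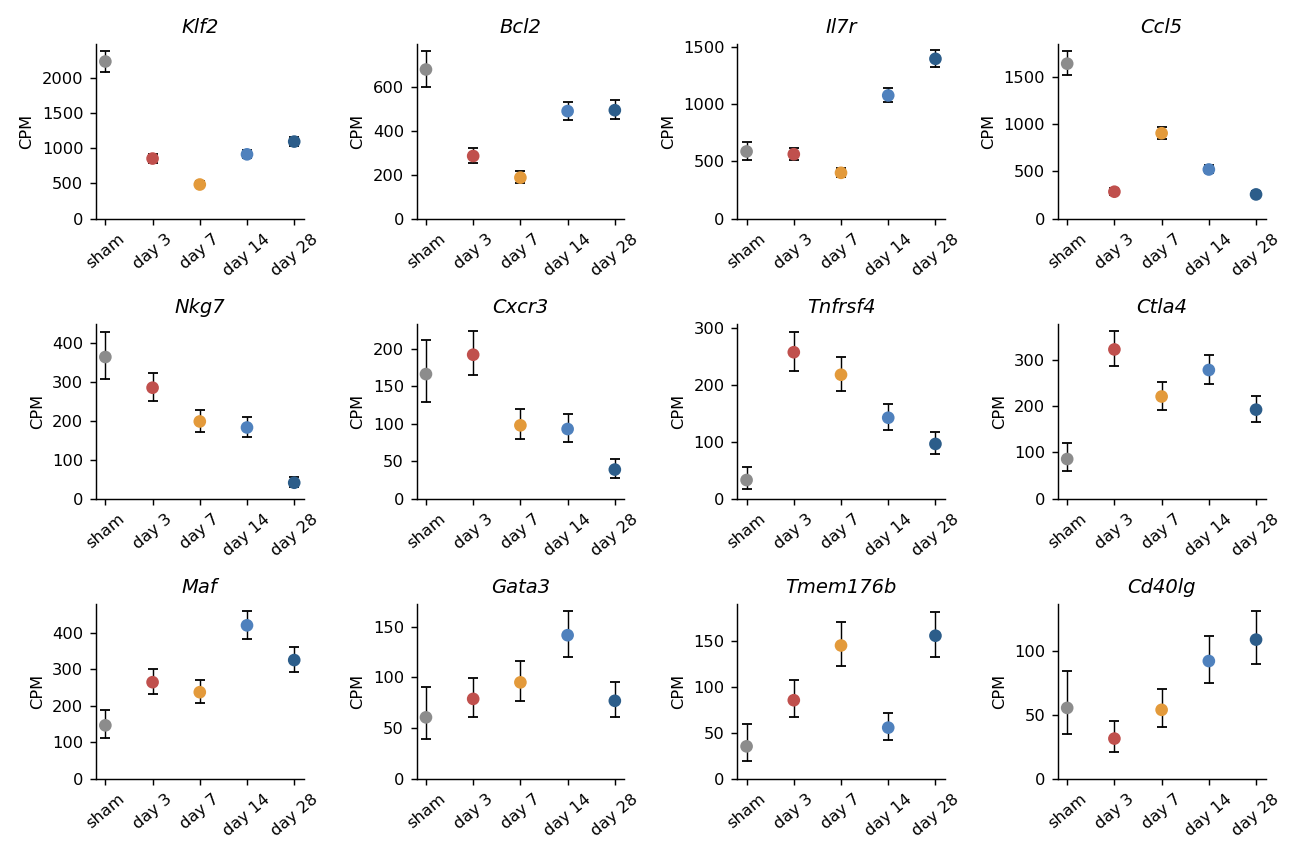
Levels of 12 genes in CD4 T cells by library (CPM on linear axes that start at 0, points with 95% counting intervals). Day 7 has the lowest Klf2 level, 484 CPM, sham the lowest Tnfrsf4 level, 32.8 CPM, and day 28 the lowest Nkg7 level, 40.8 CPM.

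Some receptors and ligands of activation stood above sham after bleomycin, while their list as a whole did not on every day. The list of costimulation and checkpoint receptors had 14 genes in use and median log2 ratios of 0.88, 0.52, 0.31 and −0.14. The day 3 median was 0.53 when 2 or more Cd4 UMIs were asked of each cell. Its summed level was 1786 CPM in sham, 2715 on day 3, 1678 on day 7, 2075 on day 14 and 1432 on day 28. On day 3, 4 of 8 counted members were 2-fold higher and none lower, beside 5.64% of all genes higher and 1.24% lower. On day 7, 3 were higher and 2 lower of 8, when 8.81% of all genes counted were higher and 3.56% lower. On day 14, 3 were higher and 1 lower of 9, beside 7.47% of all 3092 genes higher and 1.91% lower. On day 28, 2 of 7 were higher and none lower, beside 3.61% of all 2851 genes higher and 3.44% lower.

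Tnfrsf4, the costimulatory receptor OX40, stood at 32.8 CPM in sham, 258 on day 3, 218 on day 7, 142 on day 14 and 96.3 on day 28. Its log2 ratio was 2.64 (2.17 to 3.90) on day 3 and 1.31 (0.71 to 2.51) on day 28. All 4 bleomycin libraries were above sham, with the highest level on day 3. In thinned cells it was seen in 2.67%, 22.0%, 19.5%, 14.4% and 8.37% of CD4 T cells and in at most 1.07% of B cells. Thinned Foxp3-positive cells held it more often, 75.8% on day 3 and 56.4% on day 7, so it was not particular to the conventional cells. Ctla4, the inhibitory receptor that binds CD80 and CD86, stood at 85.8, 323, 221, 278 and 193 CPM, also above sham in all 4. Pdcd1, the inhibitory receptor PD-1, stood at 22.7, 111, 49.0, 67.5 and 18.5 CPM. Izumo1r, folate receptor 4, stood at 40.4, 184.5, 83.0, 42.9 and 54.5 CPM. Both had their highest level on day 3, and on day 28 their intervals against sham spanned no change.

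Icos, a costimulatory receptor of helper cells, stood at 315, 586, 360, 572 and 320 CPM, high on days 3 and 14. Cd28, the main costimulatory receptor of naive T cells, went the other way with 734 CPM in sham, 584 on day 3, 300 on day 7, 516 on day 14 and 399 on day 28, so it was lowest on day 7. The T cell receptor list, which holds Cd28, had its lowest median on that day as well, −0.61. Among ligands of the TNF family, Tnfsf8, CD30 ligand, stood at 53, 223, 138, 160 and 90.5 CPM, highest on day 3. Cd40lg, through which helper cells license B cells and dendritic cells, stood at 55.5, 31.5, 54.0, 92.2 and 109 CPM, so it was lowest on day 3 and highest on day 28. The list of cytokines and TNF family ligands, 13 of 22 genes in use, had medians of 0.59, 0.14, 0.36 and 0.02.

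The helper programmes differed in their course. The Th1 list had medians of 0.20, −0.44, 0.28 and −1.20, and on day 28 6 of 8 counted members were 2-fold lower and none higher, beside 3.44% of all genes lower. With the day 7 UMI floor in every library the day 28 median was −0.71. On day 3, 2 members were higher and 2 lower of 9, on day 7, 1 was higher and none lower of 9, and on day 14, 2 of 8 were lower and none higher. The shares of all genes on these 3 days were 5.64%, 8.81% and 7.47% higher and 1.24%, 3.56% and 1.91% lower, so 1 of 9 on day 7 was near its share. Ccl5, a chemokine of effector T cells, stood at 1637 CPM in sham, 283 on day 3, 902 on day 7, 518 on day 14 and 255 on day 28. It was seen in 21.3% of thinned CD4 T cells in sham and 6.61% on day 28, beside 2.81% and 2.93% of B cells. Nkg7, a cytotoxic granule protein, stood at 363, 285, 198, 182.5 and 40.8 CPM, and Cxcr3, the receptor for interferon-induced chemokines, at 166.5, 192, 98.0, 93.1 and 38.9 CPM. Each of the 3 was at its lowest on day 28. On day 3 the summed Th1 level was below sham, 1608 against 2691 CPM, although the list median was above 0, and Ccl5 alone held 1637 CPM of the sham sum. Ifng itself was seen in 4, 12, 12, 15 and 2 cells of the 5 libraries.

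Th17-associated genes were above sham in every bleomycin library by the list median, with 12 genes in use and 0.80, 0.45, 0.71 and 0.84. The day 7 median turned to −0.21 when 2 or more Cd4 UMIs were asked of each cell. Of 5, 5, 4 and 5 counted members, 1, 3, 2 and 3 were 2-fold higher and none lower, beside 5.64%, 8.81%, 7.47% and 3.61% of all genes higher. Maf, a factor of Th17, follicular helper and IL-10-producing cells, stood at 146 CPM in sham, 264 on day 3, 237 on day 7, 420 on day 14 and 325 on day 28. Its ratio was 1.46 (1.12 to 1.94) on day 14, when Rora, which acts beside RORγt in Th17 cells, was also highest at 273 CPM after 126 in sham. Tmem176a and Tmem176b, membrane proteins linked to RORγt-expressing cells, were highest on day 28 at 191 and 156 CPM, after 40.4 and 35.3 in sham. On day 7 they were seen in 8.85% and 14.2% of thinned CD4 T cells and in 9.50% and 10.4% of B cells. In sham the shares were 1.33% and 0% of CD4 T cells and 1.12% each of B cells. How much of their level was free RNA was not tested. Il17a was seen in 19 cells, 1, 3, 1, 7 and 7 by library, and 17 of these held Maf, 16 Rora, 16 Cxcr6 and 15 Tmem176b UMIs. Of all 724 cells, 47.2% held Maf, 39.4% Rora, 24.3% Cxcr6 and 19.8% Tmem176b UMIs.

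Of the Th2 list 6 of 16 genes were in use, with medians of 0.67, 1.05, 0.98 and 0.52. Just 2, 2, 1 and 1 members were counted, of which 1, 1, 1 and 0 were 2-fold higher and none lower. Of all genes counted, 5.64%, 8.81%, 7.47% and 3.61% were higher. Gata3, the lineage factor, stood at 60.5, 78.7, 95, 141 and 76.8 CPM. Il1rl1, the IL-33 receptor ST2, had no UMI in sham and stood at 14.6, 45.0, 49.3 and 3.89 CPM, at least 6.51-fold higher on day 14 than the sham floor of 7.57 CPM. The highest level of Gata3 fell on day 14, while days 7 and 14 were close for Il1rl1. It was seen in 14 cells (12.4%) on day 7 and in 11 (6.04%) on day 14, where 1 cell held 20 of its 54 UMIs. After thinning, Il1rl1 was seen in 4.42% of CD4 T cells on day 7 and in 23.5% of Foxp3-positive cells. The cytokines themselves were almost unseen, Il4 in 7 cells and Il5 and Il13 in 1 cell each of 724. Of the follicular helper list 13 genes were in use, with medians of 0.75, 0.19, 0.29 and 0.36, and of 7, 7, 6 and 5 counted members 3, 1, 2 and 0 were 2-fold higher and 0, 1, 0 and 0 lower. The shares of all genes higher on these days were 5.64%, 8.81%, 7.47% and 3.61%, and 3.56% were lower on day 7.

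**Figure D4:**
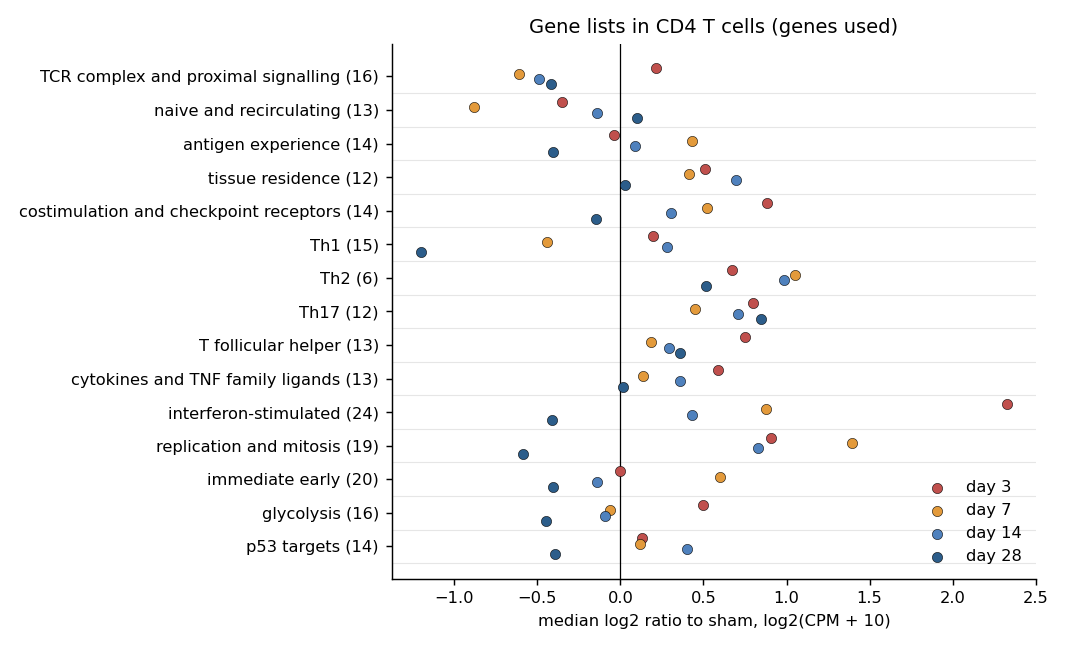
Median log2 ratio to sham of 15 gene lists in CD4 T cells on each day (log2(CPM + 10) scale, 1 point per list and day, the number of genes in use in brackets). The interferon-stimulated list on day 3 (2.33), the replication and mitosis list on day 7 (1.39), the Th1 list on day 28 (−1.20) and the Th2 list on day 7 (1.05) lie more than 1 unit from 0. With the day 7 UMI floor in every library the Th1 value of day 28 was −0.71.

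The median of the replication and mitosis genes was above sham on days 3 to 14 and below it on day 28, with 19 genes in use and log2 ratios of 0.91, 1.39, 0.83 and −0.59. Of the counted members 3 of 8, 8 of 12 and 3 of 8 were 2-fold higher on days 3, 7 and 14 and none lower, beside 5.64%, 8.81% and 7.47% of all genes higher. On day 28 none of 5 was higher and 1 was lower, beside 3.44% of all genes lower. Mki67, a protein of cycling cells, stood at 12.6 CPM in sham, 42.7 on day 3, 121 on day 7, 84.9 on day 14 and 2.92 on day 28, and Top2a, the topoisomerase of dividing chromosomes, at 22.7, 66.4, 204, 105 and 6.81 CPM. Day 7 was the highest library for both. At least 2 of 10 such genes were seen in 1.33% of thinned cells in sham, 3.25% on day 3, 10.6% on day 7 (5.61 to 17.8), 3.87% on day 14 and 0% on day 28, where a count of 0 allows up to 1.61%. In B cells this share was at most 0.905%. Unthinned, the shares in CD4 T cells were 2.67%, 5.69%, 25.7%, 7.69% and 0.433%.

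The regulatory T cell list had the medians given above, 0.90, 1.27, 0.71 and 0.53. Of its 5, 7, 5 and 4 counted members, 3, 4, 3 and 1 were 2-fold higher and none lower. Of all genes counted, 5.64%, 8.81%, 7.47% and 3.61% were higher. The lists that follow had medians within 1 log2 unit of sham. The antigen experience list had medians of −0.04, 0.43, 0.09 and −0.40, with S100a4, a calcium-binding protein of effector cells, at 590, 562, 1313, 825 and 629 CPM. In B cells the medians of this list were 0.13, 1.47, 1.02 and 0.68. S100a4 was seen in 26.7% of thinned CD4 T cells in sham and 54.0% on day 7, beside 0.843% and 18.1% of B cells. How much of this was free RNA was not tested. Tissue residence genes had 0.51, 0.41, 0.70 and 0.03, and Rgs1, a brake on chemokine receptor signals, stood at 303, 492, 348, 557 and 544 CPM. T cell receptor complex and proximal signalling genes, which include genes of the rule, had 0.21, −0.61, −0.49 and −0.42. Chemokine receptors had −0.02, 0.10, 0.09 and −0.61. Immediate early genes, which answer to receptor signals and to tissue handling alike, had 0.00, 0.60, −0.14 and −0.41, and the day 7 median turned to −0.09 without the cells that held RNA of other types. Dissociation and stress genes had 0.43, 0.62, 0.32 and −0.13.

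Glycolysis genes had medians of 0.50, −0.06, −0.09 and −0.45, with Gapdh at 603, 1107, 1037, 737 and 512.5 CPM. Targets of p53, the factor that answers to DNA damage, had 0.13, 0.12, 0.40 and −0.39, and Cdkn1a, which halts the cell cycle, stood at 40.4, 76.5, 134, 71.2 and 27.2 CPM. The cytotoxic and CD8 list, from which the rule removed Cd8a and Cd8b1, had −0.05, 0.32, −0.54 and −0.83. Gzmb, granzyme B, reached 196 CPM on day 3 in 8 cells, 1 of which held 62.6% of its UMIs. That level is the level of few cells. Areg, the epidermal growth factor family member amphiregulin, stood at 87.7 CPM on day 3 from 9 cells, 1 of which held 55.1% of its UMIs. On day 7 it was seen in 21 cells (18.6%), with 85 UMIs in all and at most 22 in 1 cell. On day 14 it was seen in 18 cells (9.89%). B cells with Areg were 5.43% on day 7 and 0.952% on day 14. After thinning, Areg was seen in 5.31% of CD4 T cells on day 7 and in 26.8% of Foxp3-positive cells.

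Across all genes counted, 168 were 2-fold higher and 37 lower than in sham on day 3, 272 and 110 on day 7, 231 and 59 on day 14, and 103 and 98 on day 28. Of these, 70 and 18, 103 and 27, 66 and 25, and 45 and 26 were 2-fold higher or lower in B cells too. Without the cells that held RNA of other types, the day 7 counts were 236 and 83. Without the 14 cells with neutrophil RNA the counts were 181 and 36, 306 and 104, 238 and 50, and 100 and 81 by day. With 2 or more Cd4 UMIs asked of each cell, genes lower numbered 134, 198, 194 and 282 by day. Genes higher then numbered 282 on day 3 and 255 on day 28. The 12 highest and 12 lowest ratios of each day were taken among genes whose CPM in the CD4 T cells of the higher library was above that of all its kept cells together. By day, 6, 9, 8 and 11 of the 12 highest and 4, 7, 8 and 9 of the 12 lowest were 2-fold the same way in B cells. Several of the genes so taken are predicted genes whose reads can fall on near-identical copies, and their values are uncertain. Gm10709 had no UMI in CD4 T cells of sham and stood at 615, 379, 172 and 116 CPM on days 3, 7, 14 and 28, beside 0.620 CPM in sham and 597 on day 3 in B cells. Gm8730 stood at 749 CPM in sham, 523 on day 3, 50 on day 7, 38.3 on day 14 and 37.0 on day 28, and at 510 in sham and 36.5 on day 7 in B cells. Genes with ordinary names that differed from sham in both cell classes were among the highest and lowest ratios too. Wdr89 stood at 126 CPM in sham, 145 on day 3, 176 on day 7, 538 on day 14 and 655.5 on day 28, and at 95.5 in sham and 542 on day 28 in B cells. Gdpd3, a lysophospholipase D, stood at 161 CPM in sham, 94.5 on day 3, 65 on day 7, 5.48 on day 14 and 3.89 on day 28, and at 135 in sham and 4.42 and 1.73 on days 14 and 28 in B cells. Gstp1, a glutathione transferase, stood at 75.7, 103, 32, 1.83 and 1.95 CPM, and at 50.8 in sham and 1.47 and 4.03 on days 14 and 28 in B cells. Which libraries stood apart from sham thus varied by gene: day 3 lay within 2-fold of sham in all of them but Gm10709, and days 14 and 28 lay outside it in all 5. The mice were kept on a mixed C57BL6/129 background per the study's methods, and whether the libraries were alike in strain background was not tested. A difference of that kind would enter the comparisons with sham.

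Some genes with large ratios stayed under 2-fold in B cells, which does not make them particular to CD4 T cells: in CD8 T cells the log2 ratios were −1.82 for Tagap and −1.11 for Prkca on day 7, 1.38 for Elovl6 on day 14 and 0.99 for Gzmk on day 3. Tagap, a GTPase-activating protein of activated T cells, stood at 116 CPM in sham and 20 on day 7, a ratio of −2.07 (−3.37 to −1.75), and at 21.7 and 11.2 CPM in B cells. Prkca, protein kinase C α, stood at 141 CPM in sham and 39 on day 7, and at 32.9 and 21.8 CPM in B cells. Elovl6, a fatty acid elongase, was at 2.52 CPM in sham, which was 1 UMI, and at 72.1 on day 14, a ratio of 2.71 (2.32 to 10.16), and stood at 1.86 and 1.47 CPM in B cells. It was seen in 43 of the 182 cells of that day, and the highest cell held 7.59% of its UMIs. Gzmk, granzyme K, was at 2.52 CPM in sham and 120 on day 3 in 19 cells. Among the lowest ratios, Retnlg, Mmp8 and G0s2, genes of neutrophils, rested on single sham cells: 1 cell held 92.7% of the 178 UMIs of Retnlg, all 27 of Mmp8 or 74.7% of the 79 of G0s2. Retnlg, with 449 CPM in sham and 16.4 on day 14, was the lowest ratio of day 14. On day 7 most of the largest ratios sat in single cells: 1 cell held 85.0% of the UMIs of Retnla and all those of Car1. On day 14 the haemoglobin genes Hba-a1, Hba-a2, Hbb-bs and Hbb-bt headed the order, with 54.2% to 56.6% of their UMIs in 1 cell.

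Cells were also sorted by 3 genes of naive cells (Ccr7, Lef1, Dapl1) and 4 of effector or memory cells (Cxcr6, Cxcr3, Ccl5, S100a4), after thinning. These classes are ranges and not cell types, since a missing UMI moves a cell between them. Cells with naive genes alone were 45.3% in sham, 30.1% on day 3, 26.5% on day 7, 31.5% on day 14 and 42.7% on day 28. Cells with effector genes alone were 36%, 34.1%, 45.1%, 35.9% and 22.5%. Cells with both were 6.67%, 16.3%, 14.2%, 16% and 11%, and cells with neither 12%, 19.5%, 14.2%, 16.6% and 23.8%. Effector genes of any kind were seen in 42.7% (31.3 to 54.6), 50.4%, 59.3% (49.6 to 68.4), 51.9% and 33.5% (27.4 to 40), highest on day 7 and lowest on day 28. The share in B cells was 3.65%, 9.23%, 23.5%, 23.1% and 13.6%, so such UMIs were most frequent in B cells too on days 7 and 14. The part of free RNA in this order was not tested.

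**Figure D5:**
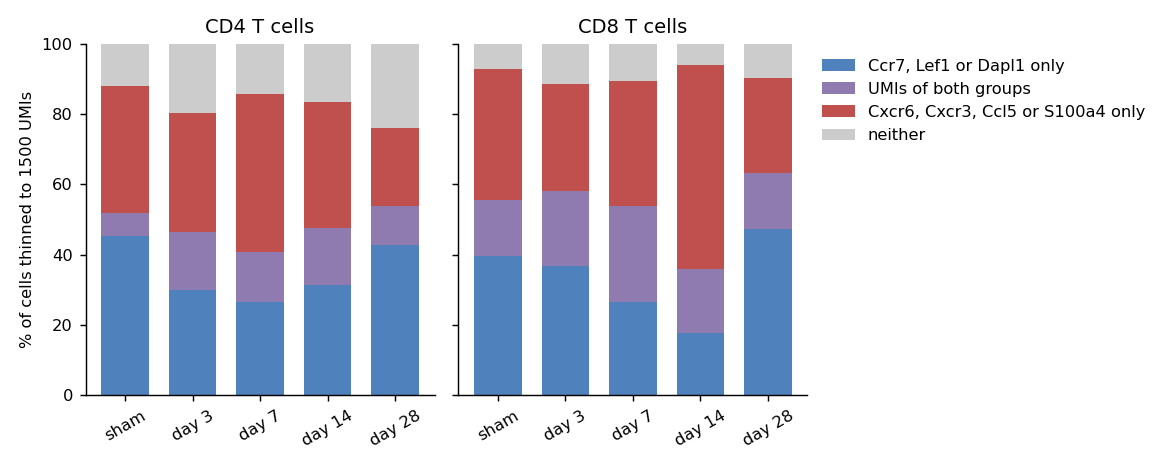
CD4 T cells and CD8 T cells with naive genes alone, UMIs of both groups, effector genes alone or neither (stacked percent of cells thinned to 1500 UMIs, by library). Among CD4 T cells, those with effector genes alone run from 22.5% on day 28 to 45.1% on day 7.

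The day 3 interferon level was seen on both sides of this split. The summed list stood at 10936 CPM in the 37 day 3 cells with naive genes alone and 19691 CPM in the 42 with effector genes alone. In sham it stood at 1593 and 3621 CPM in 34 and 27 cells. Both kinds of cells were above their sham counterparts, and in both libraries the effector cells were the higher. Tnfrsf4 sat mostly with effector genes on day 7, at 288 CPM against 23.6 CPM, and on day 28, at 245 against 32.3 CPM. On day 3 cells with naive genes alone also held it, at 166 CPM beside 367 CPM. Maf followed the effector side throughout, with 66.6 and 209.6 CPM in sham and 137 and 708 CPM on day 14.

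Against CD8 T cells of the same library, 12 genes were at least 2-fold higher in all 5 libraries, 0.317% of the 3781 counted, and 14 lower, 0.37%. The rule itself contrasts these classes by Cd4, Cd8a and Cd8b1, so this order is a description. The higher genes were Cd4, Maf, Tnfrsf4, Ramp3, Cd40lg, Tesc, Izumo1r, Tspan32, Pdlim4, Trib2, Ctla4 and Ass1. Maf had a median log2 ratio of 2.98 (lowest library 2.51, highest 3.65), and Cd40lg 2.03 (1.99 to 3.02). Several were more frequent still in Foxp3-positive cells. Among thinned day 3 cells, these held Maf in 51.5%, Tnfrsf4 in 75.8%, Izumo1r in 34.8% and Ctla4 in 74.2%. The CD4 T cells of that day held them in 24.4%, 22.0%, 19.5% and 22.8%. Cd40lg went the other way, with 1.52% of Foxp3-positive cells and 4.07% of CD4 T cells. The lower genes included Cd8a and Cd8b1, the natural killer receptors Klrd1, Klrc1 and Klrc2, the cytotoxic factor Eomes, the granule genes Nkg7, Cst7, Ctsw and Gzmb, and the chemokines Ccl5 and Ccl4, with Cd7 and 5730508B09Rik. Ccl5 had a median of −3.08 (−3.93 to −1.59) and Eomes −2.46 (−2.60 to −1.85).

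The receptor repertoire was barely sampled by 3′ reads. A Trbv gene was seen in 74 of 724 cells (10.2%), 2, 10, 11, 22 and 29 by library, and 15 of 35 annotated Trbv genes occurred. The most frequent were Trbv2 in 16 cells, Trbv12-2 in 12, Trbv1 in 9 and Trbv13-2 in 7. Just 1 cell held more than 1 Trbv gene. With so few cells no library's usage could be ordered against another.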

How the data were processed

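Lung immune cells of 5 libraries (sham and days 3, 7, 14 and 28 after bleomycin, 1 library per group) were analysed. The authors deposited UMI counts per gene and barcode, made with Cell Ranger 6.0.0 on mm10 per the submitters' processing notes, with one feature list of 28693 entries and no cell annotation. The headers of all 5 count files name an earlier software version than these notes, and whether the same annotation was used throughout was not tested beyond the feature list. The reporter enters as a feature named RFP. The files start at 500 UMIs per barcode, but at 4624 in the day 7 library, and their totals are given as depth.

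CD4 T cells were taken by thresholds on raw counts. CD8 T cells met the same rule with Cd8a or Cd8b1 and no Cd4 UMI. Foxp3-positive cells met it with Foxp3 in place of its absence and with or without a Cd4 UMI. B cells held 2 or more Cd79a UMIs, no CD3 UMIs and at most 1 UMI of Cd68 and Mrc1. The members and the 28 gene lists (359 genes, 4 of them not among the features used) were chosen with earlier results of these data known, and 1 further gene is not reported here and was left out of the lists. Doublets were handled by the rule alone, and Scrublet in scanpy 1.11.5 served as an alternative in which the barcodes of highest score were left out at 0.8% of cells per 1000 barcodes.

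Counts were summed per library and divided by the sum of the cells' UMIs (CPM). Differences were taken on log2(CPM + 10), a list used members at 10 CPM or more in any library, and 50 CPM in either library was needed for a gene to be counted. No test was run, since cells are not replicates. Intervals are exact 95% binomial or Poisson intervals. The named genes were the 12 highest and 12 lowest ratios of each day as defined in the text, leaving out mitochondrial, ribosomal protein, immunoglobulin and receptor variable genes. The genes of the rule and of the lists were named as well. The calculations were checked on simulated counts in Python 3.11.15 with numpy 2.4.6, scipy 1.17.1 and pandas 2.3.3. Alternatives were other limits on Cd3, Cd4, mitochondrial UMIs, UMI floor and macrophage genes, other pseudocounts and filters, the mean of CPM per cell and other thinning depths.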

Additional observations from a re-analysis of the deposited data

Results flagged for a closer look

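The reporter transcript, listed in the files as RFP, was not used in any comparison above, and it was seen in CD4 T cells of all libraries. After thinning to 1500 UMIs it was seen in 33.1% of CD4 T cells on day 14 (26.3 to 40.5), above the 10.7% of sham (4.72 to 19.9), and in 13%, 19.5% and 16.7% on days 3, 7 and 28. The level was 164 CPM in sham, 116 on day 3, 134 on day 7, 246 on day 14 and 110 on day 28. In B cells of the same libraries the thinned shares were 8.15%, 6.59%, 13.6%, 24% and 12.8%, highest on day 14 as well. With 1 library per group the difference between day 14 and sham was not tested, and the part of free RNA in it was not tested.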

How the results depend on the processing

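Of the results that answer a comparison, 28 of 40 shares of kept cells, 31 of 37 CD4 to CD8 ratios, 65 of 88 counts of genes, 27 of 45 list medians and 67 of 90 shares of cells with UMIs stayed within their limits under the alternatives, and no list median among those 45 changed sign. Of 963 medians of other lists, 68 changed sign. Each library was the whole of its group, so leaving out a library was not possible, and no paired analysis was possible because each group had 1 library. Where no construction is named, the cause was not tested.

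With 2 or more Cd4 UMIs, which left 28, 64, 49, 80 and 66 cells, the shares of kept cells were 0.303%, 0.7996%, 0.516%, 1.03% and 0.642% and the ratios 0.222, 0.116, 0.126, 0.203 and 0.288. Genes 2-fold higher numbered 282 on day 3 and 255 on day 28, and genes lower 134, 198, 194 and 282 by day. The medians were 0.53 for costimulation and 1.96 for interferon-stimulated genes on day 3, −0.54 for naive genes on day 7 and −1.59 for Th1 genes on day 28. With the day 7 UMI floor in every library, day 28 had a share of 1.21% and a ratio of 0.634, day 3 medians were 1.08 (costimulation) and 2.17 (interferon-stimulated), the naive median of day 7 was −0.98, the Th1 median of day 28 was −0.71, and any effector gene was seen in 44.1% of cells on day 14. Without the highest Scrublet scores the naive median of day 7 was −0.79. Counting Lyz2 and Chil3 with Cd68 and Mrc1 left 0, 40, 20, 0 and 0 cells, shares of 0%, 0.500%, 0.211%, 0% and 0%, and too few cells for levels or lists. Leaving out cells with UMIs of other types, an alternative chosen after seeing the data, gave a day 7 share of 0.980% and naive median of −0.57. Leaving out the 14 cells with neutrophil UMIs, also chosen after seeing the data, moved no result that answers a comparison beyond its limits.

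With the mean of CPM per cell the medians were 0.69 (costimulation) and 2.54 (interferon-stimulated) on day 3 and −0.55 (naive) and 1.18 (replication) on day 7. A filter of 100 CPM left 99, 133, 98 and 49 genes higher and 17, 71, 33 and 45 lower by day, and no filter gave 420, 792, 627 and 329 higher and 147, 218, 135 and 206 lower, since it changes how many genes are counted. With log2(CPM + 1), 57 genes were lower on day 3, and the medians were 1.05 (costimulation) and 2.82 (interferon-stimulated) on day 3, 2.26 (replication) on day 7 and −1.72 (Th1) on day 28.

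Without thinning, any naive gene was seen in 82.7%, 69.9%, 66.4%, 71.4% and 72.3% of cells and any effector gene in 57.3%, 70.7%, 73.5%, 71.4% and 47.2%, and 3 of 11 interferon-stimulated genes in 96.7%, 27.4% and 12.1% on days 3, 7 and 14. Thinned to 3000 UMIs, naive genes were seen in 76.1% in sham and in 61.5%, 58.1% and 68.4% on days 3, 14 and 28, effector genes in 61.6% on day 14 and 41.8% on day 28, and interferon-stimulated genes in 78.6%, 15% and 5.81% on days 3, 7 and 14. More UMIs per cell give higher shares by construction.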
